A study of Mus musculus with 14 samples.

Results

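The genes of the major histocompatibility complex (MHC) and of antigen presentation were followed across 12 mammary tumours of Brg1+/- mice. They were chosen by name, as every probe whose annotated symbol starts with H2- together with a list of 20 genes that supply, load or regulate MHC molecules. Of that list 18 genes had a probe with a single gene symbol, and Nlrc5 and Psme2 are not analysed here. With 25 H2- genes this made 43 members, measured by 64 probes, among 16879 genes of the array. Each of 14 two-colour arrays set tumour RNA (Cy5) against a common mouse reference RNA (Cy3), and each value is a log2 ratio of tumour over reference. All tumours carried one genotype, heterozygous for Brg1 (Smarca4), the ATPase of a chromatin remodelling complex, so there is no wild-type group. The labels give no strain, age or treatment, do not explain the word MIXED that every sample name carries, and do not say whether each tumour came from its own animal. T172 and T284 had a second array each, marked as a biological replicate, and the other 10 tumours had 1 array. The p-values of the F-test thus measure tumours against the spread within these pairs, which may be technical.

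MHC class I molecules, made of a heavy chain and beta-2 microglobulin, show peptides from inside the cell to CD8 T cells. Their peptides are cut by the proteasome, whose immunoproteasome subunits are induced by interferon gamma, and are carried into the endoplasmic reticulum by the Tap transporter. Class II molecules, made of an alpha and a beta chain, show peptides from the endosome to CD4 T cells. They are made mainly by macrophages, dendritic cells and B cells, while most other cells need interferon gamma to make them. Ciita is the transactivator of class II genes.

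T176 stood apart from the other tumours in genes that are no members. Its luminal epithelial markers (Krt8, Krt18, Krt19, Epcam and Cdh1) had a score of -4.99, the mean log2 ratio after each gene was centred on its own mean. The other 11 tumours had scores of -0.29 to 1.43, so the mammary label was not borne out by luminal markers in T176. Krt19 set it apart least, at -4.12 beside -3.66 in T284 and -3.43 in T172. The basal markers (Krt5, Krt14 and Trp63) did not set T176 apart. Their score was -0.94 there, within a range from -2.87 in T172 to 2.95 in T2023. The tissue of origin of T176 was not tested.

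All 43 members had a value on all 14 arrays, and no filter on low signal was applied. The F-test of limma called 19 of the 43 members as different between tumours at an adjusted p under 0.05, which is 44.2% of them, beside 18.4% of the 16877 genes tested. At an adjusted p under 0.01 the count was 8 members, beside 9.42% of all genes. The median member had an SD over tumours of 0.63 on the log2 scale, against 0.39 for the median of all genes. The mean log2 ratio was above 0 for 36 of 43 members, as it was for 8620 of the 16877 genes, and 28 members were above 0 in all 12 tumours. For H2-Q10 that sign depended on which of its 2 probes was used. The reference RNA is not a normal tissue of these mice, so these levels say nothing on gain or loss against mammary gland. In tumour RNA, fewer cells of a type and less RNA per cell cannot be told apart.

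**Figure D1:**
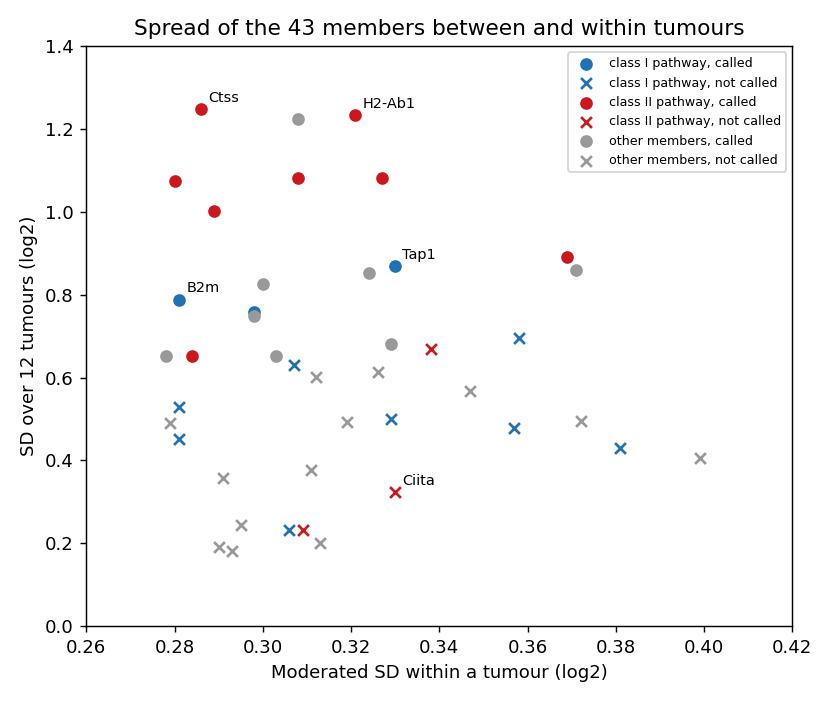
Each point is 1 of the 43 members, with its moderated SD within a tumour on the x axis and its SD over 12 tumours on the y axis, both in log2 units; circles were called by the F-test, crosses were not, and colours give the pathway. Ctss (SD 1.25) and H2-Ab1 (1.23) of class II lie at the top and Ciita (0.32) near the bottom.

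The class I pathway had 11 measured genes, of which 3 (27.3%, beside 18.4% of all genes) were called: H2-D1, B2m and Tap1. B2m, the light chain of every class I molecule, had its lowest log2 ratio at 1.44 in T172, a median of 3.12 and its highest at 3.93 in T920. T172 and T176 (1.58) lay apart from the other 10 tumours, which stood at 2.47 or more. The 2 arrays of T172 gave 1.44 and 1.43 and those of T284 gave 3.51 and 3.31, so the 5.63-fold range over tumours exceeded the spread within them (SD over tumours 0.79, n = 12; limma adjusted p = 0.0073). The 180 bases before its start site are shown because they hold, in capitals, both the core of an interferon-stimulated response element and that of the Y box (ATTGG), elements known from MHC genes. The sequence is from RefSeq (GRCm38.p6, chr2:122147507-122147686, plus strand).
B2m: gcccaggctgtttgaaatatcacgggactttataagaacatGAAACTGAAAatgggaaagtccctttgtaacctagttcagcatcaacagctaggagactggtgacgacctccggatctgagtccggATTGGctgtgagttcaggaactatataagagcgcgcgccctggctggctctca
The first of these cores was found, on either strand, in the 250 bases upstream of 2.98% of 32851 promoters of that table and of 3 of the 33 members listed there, B2m, Ctss and H2-T23. The Y box core was found upstream of 33.8% of all promoters, of 25 of the 33 members and of 6 of the 10 listed class I pathway genes. The share over all promoters counts each promoter, whereas a member counted once if any of its listed promoters matched. A match describes the sequence and is no measure of binding.

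The classical heavy chain genes differed from each other in their order of tumours. H2-D1 ranged from 0.66 in T221 to 3.03 in T920 with a median of 1.53, a 5.18-fold span (limma adjusted p = 0.0168). T920, T284 (2.44) and T135 (2.21) were highest, and T221, T172 (0.78) and T2023 (0.85) lowest. H2-K1 ranged from 1.45 in T172 to 3.15 in T372 with a median of 2.79, and the 11 tumours besides T172 lay between 2.31 and 3.15. It was not called when its 3 probes were averaged (limma adjusted p = 0.0877), but it was with 1 probe (0.0338) and after quantile normalization (0.0265). Its spread rested on T172, without which its adjusted p was 0.981. In T221, where H2-D1 was lowest of the 12 tumours, H2-K1 stood at 2.78.

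Among the genes that bring peptides to class I, Tap1, a subunit of the peptide transporter, was called (limma adjusted p = 0.0183). It had a lowest log2 ratio of 0.74 in T176, a median of 1.77 and a highest of 3.94 in T920, with T284 next at 2.54. Without T920 it was not called (adjusted p = 0.0872). Its partner Tap2 ranged from 0.18 in T2023 to 1.49 in T284, whose 2 arrays gave 1.06 and 1.92 (adjusted p = 0.35). Tapbp, the tapasin that bridges transporter and heavy chain, ranged over 2.61-fold, and Erap1, which trims peptides, over 1.64-fold, and limma called neither (adjusted p = 0.587 and 0.888).

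Limma called none of the 3 immunoproteasome genes, beside 18.4% of all genes. Each of them passed the threshold in some alternatives, several of which called more of all genes too. That share was 23.9% after quantile normalization and 23.3% without T172. Psmb9 also passed where the share was not higher, as without T920 (18.2%). Psmb8, a catalytic subunit, ranged from 1.90 in T2023 to 4.05 in T372 with a median of 3.33 (limma adjusted p = 0.0744). Its 2 arrays of T172 differed, at 2.52 and 1.73, and without T172 it was called (adjusted p = 0.0328). Psmb9, another catalytic subunit, ranged from 1.43 in T2023 to 3.51 in T372 with a median of 2.68 (adjusted p = 0.0584), and 11 of 22 alternatives, including quantile normalization (0.0421), placed it under the threshold. Psmb10, the third subunit, ranged from -0.08 in T2023 to 1.64 in T176 (adjusted p = 0.102; 0.0366 after quantile normalization). In T176 it was the highest of the 12 tumours, while Psmb8 (2.15) and Psmb9 (1.75) were among the lowest there. Psme1, a subunit of the proteasome activator, was lowest in T2023 at -0.86 and highest in T372 at 1.06 (adjusted p = 0.273). T2023 held the lowest value of 6 of the 11 class I pathway genes, and T372 the highest of 6. The constitutive subunits that Psmb8, Psmb9 and Psmb10 replace, Psmb5, Psmb6 and Psmb7, had SDs over tumours of 0.18, 0.19 and 0.34. The SDs of the immunoproteasome genes were 0.695, 0.63 and 0.53. Limma called none of the constitutive subunits (adjusted p = 0.965, 0.945 and 0.479).

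Tap1 and Psmb9 lie head to head on chromosome 17, and the stretch between their start sites is shown because it lies upstream of both genes. It comes from RefSeq (GRCm38.p6, chr17:34187331-34187555, strand of Tap1), with capitals marking the Y box core, here read on the opposite strand as CCAAT.
Tap1 and Psmb9: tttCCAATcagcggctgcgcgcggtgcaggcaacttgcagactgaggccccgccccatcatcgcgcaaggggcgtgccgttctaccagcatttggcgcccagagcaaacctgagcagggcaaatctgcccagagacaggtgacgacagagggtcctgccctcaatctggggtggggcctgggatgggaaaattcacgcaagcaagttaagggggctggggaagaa
The core of the interferon-stimulated response element, as searched in B2m, has no match in this window on either strand.

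The class II pathway had 11 measured genes and 8 of them (72.7%, beside 18.4% of all genes) were called, all 4 chains included. H2-Ab1, a beta chain, had its lowest log2 ratio at 0.65 in T176, a median of 2.07 and its highest at 4.38 in T646, a 13.3-fold range (SD over tumours 1.23, n = 12; limma adjusted p = 0.00264). T646 and T135 (4.11) were highest and T176 and T160 (0.79) lowest, with the other 8 tumours from 1.64 to 3.50. H2-Aa, its alpha chain partner, ranged from 0.74 in T2023 to 3.99 in T646 with a median of 2.10 (adjusted p = 0.00618). H2-Eb1, the beta chain of the other class II molecule, ranged from 0.52 in T176 to 3.61 in T646 with a median of 2.24 (adjusted p = 0.00399). Its partner H2-Ea ranged from 0.68 in T176 to 3.92 in T646 with a median of 1.58 (adjusted p = 0.00261). Whether H2-Ea is made depends on the mouse haplotype, which the labels do not give. For the other H2- genes too, differences in sequence between haplotypes were not assessed. The 2 arrays of T172 and of T284 differed by 0.04 to 0.72 in these 4 genes, against 3.09 to 3.74 between the extreme tumours. Each of the 4 passed the threshold in all 22 alternatives. Their 6 pairs correlated at r = 0.75 to 0.958 over the 12 tumours, which is given as a description, since the genes were read on the same arrays against a shared reference.

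Upstream sequences of 3 class II genes that were called are shown, each with the 180 bases before its start site from RefSeq (GRCm38.p6). Capitals mark the Y box core and TAGCAAC, an X box core.
H2-Aa (chr17:34287824-34288003, minus strand): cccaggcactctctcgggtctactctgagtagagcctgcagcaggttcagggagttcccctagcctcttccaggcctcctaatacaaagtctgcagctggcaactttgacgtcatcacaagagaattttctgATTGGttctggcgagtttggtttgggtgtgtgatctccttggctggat
H2-Eb1 (chr17:34305687-34305866, plus strand): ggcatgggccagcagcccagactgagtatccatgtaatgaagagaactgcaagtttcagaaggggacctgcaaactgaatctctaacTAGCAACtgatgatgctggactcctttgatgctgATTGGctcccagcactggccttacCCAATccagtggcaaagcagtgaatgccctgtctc
H2-DMb1 (chr17:34153011-34153190, plus strand): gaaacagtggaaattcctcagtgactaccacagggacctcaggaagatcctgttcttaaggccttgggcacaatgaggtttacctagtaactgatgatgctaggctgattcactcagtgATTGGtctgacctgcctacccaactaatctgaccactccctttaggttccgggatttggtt
All 3 carry the Y box core, as do the 250 upstream bases of 6 of the 7 class II pathway genes in the table, though not in every listed promoter of H2-DMa. The X box core, searched on both strands, was found upstream of 3.16% of all promoters and of 2 of these 7, H2-Eb1 and H2-Ob. Only its exact letters were searched, so variant X boxes were missed and H2-Aa and H2-DMb1 may hold one.

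Genes that process the class II ligand or exchange its peptide followed. Ctss, cathepsin S, which cuts the invariant chain, had the widest range of the 43 members, 23-fold. It stood at -0.43 in T176 and at 1.45 to 4.09 in the other 11 tumours, with a median of 2.79 over the 12 and its highest value in T646 (limma adjusted p = 0.00123). Cd74, the invariant chain itself, ranged from 0.995 in T176 to 4.18 in T646 with a median of 2.11 (adjusted p = 0.0284). Its 2 arrays of T172 stood at 0.956 and 2.002, the widest gap between those arrays among members, and without T646 it was not called (adjusted p = 0.101). H2-DMb1, a chain of the peptide exchange factor DM, ranged from 1.04 in T284 to 4.24 in T646 with a median of 2.81 (adjusted p = 0.00289). Both arrays of T284 gave 1.04 for it, while H2-Aa was at 2.86 in that tumour. H2-DMa, the other DM chain, ranged from 0.17 in T176 to 2.425 in T646 (adjusted p = 0.0481). That call was lost without T160 (0.0559), T176 (0.0751) or T646 (0.141). It was also lost with 1 probe per gene (0.0569), although H2-DMa has 1 probe and only values of other genes changed there.

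The upstream stretch of Ctss is shown because it differs from the 3 above, holding no Y box core in these letters and, in capitals, the core of an interferon-stimulated response element (RefSeq, GRCm38.p6, chr3:95526606-95526785, plus strand).
Ctss: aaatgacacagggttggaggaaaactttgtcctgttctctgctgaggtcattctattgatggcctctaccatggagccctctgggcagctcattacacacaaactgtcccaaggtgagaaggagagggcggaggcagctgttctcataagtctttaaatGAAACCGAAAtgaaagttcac

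H2-Oa and H2-Ob encode DO, which restrains DM and is known mainly from B cells. H2-Oa ranged from -0.41 in T172 to 1.73 in T135 and was not called (limma adjusted p = 0.0567), but it passed the threshold in 9 of 22 alternatives, among them quantile normalization (0.0407) and leaving out T172 (0.0182). H2-Ob lay between -0.56 and 0.21 and was not called (adjusted p = 0.852). T646 held the highest value of 9 of the 11 class II pathway genes, and T176 the lowest of 6.

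The regulators had small spreads. Ciita, the class II transactivator, stood between -0.86 in T920 and 0.31 in T2023 with a median of 0.03 (SD over tumours 0.32; limma adjusted p = 0.717). Its 2 arrays of T172 gave -0.57 and 0.08, a gap of 0.65. T646, where the class II chains peaked, had Ciita at 0.20, and T176, where 3 of the 4 were lowest, had it at 0.04. Rfx5, a subunit of the complex that binds the X box, ranged from -0.33 in T920 to 0.29 in T372 (adjusted p = 0.96). Whether the probes of these genes had signal above background cannot be told from ratios.

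Relations between single genes were computed over the 12 tumours for 13 pairs, with two-sided permutation tests and Benjamini-Hochberg adjustment over the 13. Ciita correlated with H2-Aa at r = -0.049, with H2-Ab1 at -0.186 and with H2-Eb1 at -0.17 (permutation p = 0.885, 0.582 and 0.622, adjusted 0.885, 0.735 and 0.735). The rho values were -0.203, -0.063 and 0.028 (permutation p = 0.53, 0.852 and 0.938, adjusted 0.689, 0.923 and 0.938). Without T920 and T135, which lay farthest from the median of Ciita, r was 0.056, 0.353 and 0.541. Ciita with Cd74 had r = 0.427 (permutation p = 0.166, adjusted 0.269), rho = 0.538 (permutation p = 0.076, adjusted 0.165) and r = 0.602 without the same tumours. Of the 13 pairs, only Ctss with H2-Ab1 passed, with r = 0.766 (permutation p = 0.00223, adjusted 0.029) and rho = 0.832 (permutation p = 0.00135, adjusted 0.0175). It stood at r = 0.708 without T176 and T172, the tumours farthest from the median of Ctss, and at 0.723 without T176 alone.

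**Figure D2:**
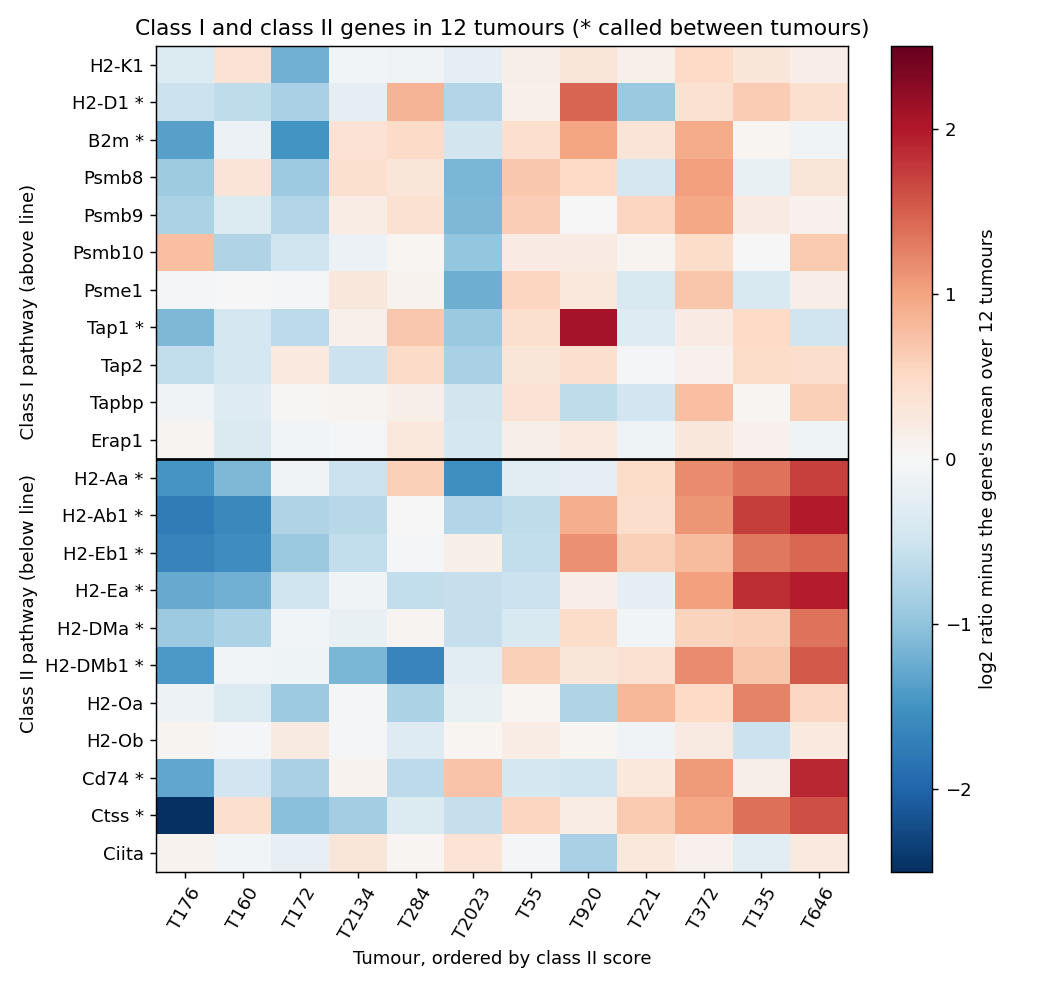
Rows are the 11 class I and 11 class II pathway genes, columns the 12 tumours ordered by class II score, and colour is the log2 ratio minus the mean of the gene over the tumours; an asterisk marks genes called by the F-test. The class II chains go from below their means in T176 to above them in T646, Ciita (SD 0.32) and H2-Ob (0.23) stay pale, and Tap1 is darkest in T920, where its log2 ratio was 3.94.

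Class I and class II were set against each other by a score, the mean over the 11 genes of each pathway of the log2 ratio minus the mean of the gene over the 12 tumours. The class II score had an SD over tumours of 0.71 and the class I score of 0.44; no test is attached to these scores. Class II ran from -1.15 in T176 to 1.32 in T646, and class I from -0.77 in T2023 to 0.57 in T372. The 2 arrays of T172 differed by 0.27 in class I and 0.05 in class II, and those of T284 by 0.04 and 0.01. Single class II genes differed more in T172, and gaps of opposite sign partly cancelled in the score. Second minus first array ran there from -0.72 in H2-Aa to 1.05 in Cd74. T372 was high in both scores, with all 11 genes of each pathway above their means. T646 had class II at 1.32 and class I at 0.19, and T135 had them at 0.86 and 0.16. T284, T55 and T2134 went the other way, with class I at 0.33, 0.36 and 0.04 and class II at -0.34, -0.14 and -0.35. The 0.04 of T2134 is smaller than the 0.27 between the arrays of T172. T920, next to T372 in class I at 0.53, had class II at 0.08. In T284, 10 of 11 class I genes and 3 of 11 class II genes were above their means. T2023 had 0 of 11 class I genes above the mean and 4 of 11 class II genes. T176 was low in both, at -0.45 in class I and -1.15 in class II, and so was T172, at -0.56 and -0.47. Class I minus class II ran from -1.13 in T646 to 0.70 in T176. Its arrays differed by 0.32 in T172 and 0.05 in T284, against a median of 0.65 between tumours.

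**Figure D3:**
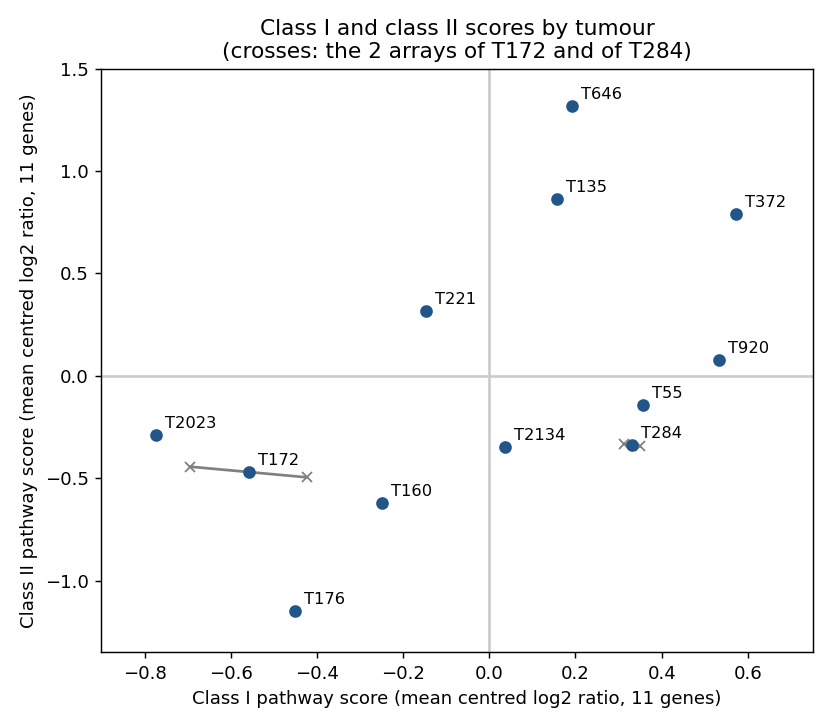
Each point is a tumour, with its class I pathway score on the x axis and its class II pathway score on the y axis (mean centred log2 ratio over 11 genes each); crosses joined by a line are the 2 arrays of T172 and of T284. T646 (1.32) and T135 (0.86) lie high on the class II axis, T2023 lies farthest left (-0.77) and T176 lowest (-1.15).

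Within class I the median correlation between genes over the 12 tumours was 0.499, within class II 0.599, and between a class I and a class II gene 0.328, all as descriptions of tumours that share a reference. B2m ran closest to Psmb8 (r = 0.812), H2-K1 (0.798), Psmb9 (0.793) and Tap1 (0.763) among class I genes, and least with Tapbp (0.121). Tap1 with H2-Ab1 did not pass (r = 0.45, permutation p = 0.142, adjusted 0.269; rho = 0.566, permutation p = 0.0589, adjusted 0.153) and had r = 0.266 without T920 and T176. Psmb5 with Psmb8 did not pass either (r = 0.526, permutation p = 0.0808, adjusted 0.263; rho = 0.692, permutation p = 0.0158, adjusted 0.103) and had r = 0.631 without T172 and T646.

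Of the 14 non-classical class I heavy chain genes, relatives of the classical chains with narrower roles, 6 were called (42.9%, beside 18.4% of all genes). They were H2-Q1, H2-Q2, H2-Q10, H2-M3, H2-T-ps and H2-Bl. H2-Q1 ranged from 0.63 in T2023 to 3.002 in T920 with a median of 1.62 (limma adjusted p = 0.0187). H2-Q2 ranged from 0.57 in T172 to 2.96 in T920 with a median of 1.525 (adjusted p = 0.0467), and lost its call in 5 of 22 alternatives, among them leaving out T920 (0.102), T284 (0.0545) or either array of T284 (0.0547 and 0.0556). Both had their highest value in T920, as H2-D1 did. Among H2-D1, H2-Q1, H2-Q2, H2-Q5 and H2-Q7 the 10 pairwise correlations over the tumours lay between 0.885 and 0.969, while H2-D1 with H2-K1 correlated at 0.484. Class I heavy chain genes have near-identical stretches, so a probe may read several of them and these 5 are not independent measurements; how far was not tested. H2-Q5 and H2-Q7 were not called (adjusted p = 0.13 and 0.0658).

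H2-T-ps, by its symbol a pseudogene of the T region, followed another order. It stood at 0.40 in T135, 1.35 in T2023 and 1.60 in T176 and between 2.475 and 4.30 in the other 9 tumours, with a median of 3.39 and its highest value in T284, a 14.9-fold range (limma adjusted p = 0.00172). The 2 arrays of T172 gave 3.50 and 3.88. Its correlations with H2-D1 and the 4 Q genes above lay between -0.06 and 0.198. T135, where H2-T-ps was lowest, held the highest values of H2-Q7 (3.19), H2-T23 (2.125) and H2-M2 (2.14). H2-Bl ranged from -2.13 in T2023 to 0.575 in T176 with a median of -1.09 (adjusted p = 0.0175). T176, T284 (0.14) and T920 (0.03) were above the reference for it and the other 9 tumours below. H2-M3, which presents formylated bacterial peptides, ranged from 1.14 in T2134 to 3.115 in T646 with a median of 2.38 (adjusted p = 0.029). T221 (2.93) and T284 (2.88) came next to T646.

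H2-Q10 was called (limma adjusted p = 0.0364; 0.0794 without T172), but its 2 probes gave different levels. Their means over the 14 arrays were -0.54 and 1.55, and over the 12 tumours they correlated at r = 0.468. H2-Q7 and H2-M2 were each measured by 10 probes annotated with a single accession. On an array the 10 values of H2-Q7 had an SD of 0.085 to 0.50 and those of H2-M2 of 0.10 to 0.42. Over tumours the probes of H2-Q7 correlated at r = 0.859 to 0.996 and those of H2-M2 at 0.803 to 0.996. Their SDs over tumours were 0.61 and 0.49. H2-T23, which encodes Qa-1, a ligand of the inhibitory receptor CD94/NKG2A, ranged from 0.28 in T172 to 2.125 in T135 and was not called (adjusted p = 0.0565), but passed in 6 of 22 alternatives. The remaining genes of this group, H2-M2, H2-M9, H2-M10.1, H2-T3 and H2-T24, had limma adjusted p from 0.104 to 0.952.

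**Figure D4:**
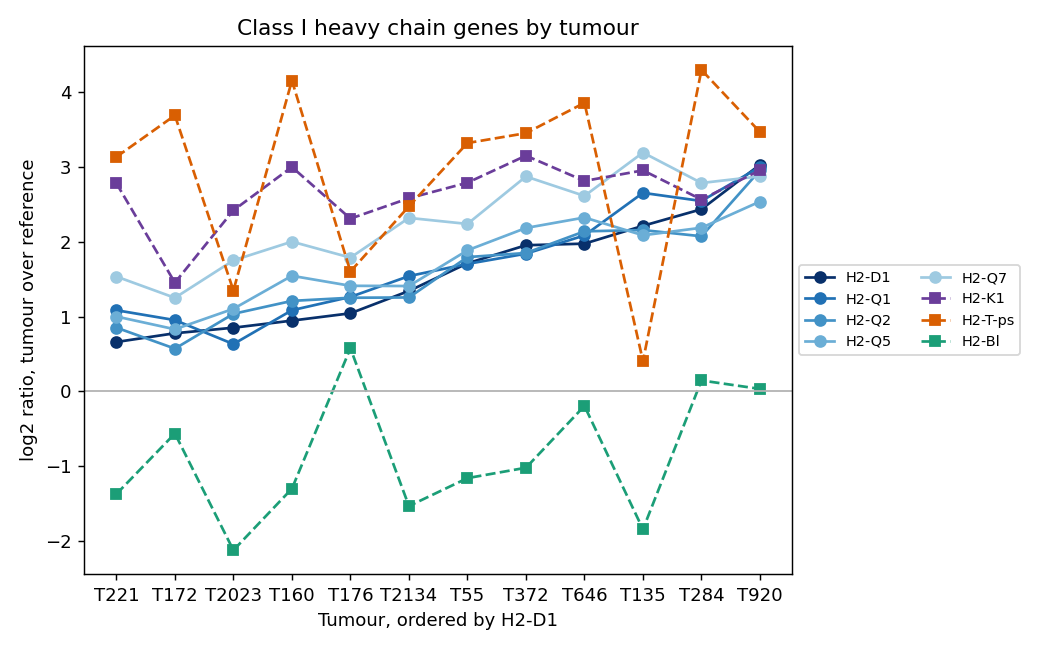
The y axis is the log2 ratio of tumour over reference for 8 class I heavy chain genes, and the x axis the 12 tumours ordered by H2-D1; lines only join the values of a gene. H2-D1, H2-Q1, H2-Q2, H2-Q5 and H2-Q7 run together, whereas H2-T-ps drops to 0.40 in T135 and H2-Bl lies lowest of the 8 in all 12 tumours.

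Of the class I-like genes, Cd1d1, which presents lipids to natural killer T cells, ranged from -2.82 in T2023 to 0.37 in T176 with a median of -0.91 (limma adjusted p = 0.0413). T176 was the only one of the 12 tumours above the reference for it. The call was lost without T135 (adjusted p = 0.0524), T176 (0.0844) or T2023 (0.107). Mr1, which presents vitamin B metabolites, ranged from 0.18 to 1.39 and was not called (adjusted p = 0.351). Of the 3 lumenal chaperones Pdia3, the oxidoreductase of the loading complex, was called (adjusted p = 0.0123). It stood at -1.235 in T176, -1.13 in T2134, -1.12 in T2023 and -1.10 in T160, and at 0.13 to 0.96 in the other 8 tumours. The 2 arrays of T172 gave 0.935 and 0.987. Calr and Canx, the lectin chaperones, were not called (adjusted p = 0.221 and 0.829). H2-Ke6, which lies in the MHC but encodes a steroid dehydrogenase, was not called (adjusted p = 0.491).

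Limma called no member at an adjusted p under 0.05 when a single tumour was set against the other 11, beside 0.394% over all genes and tumours. Most of the calls over all genes came from T176. In T176, where 2.48% of all genes were called as higher and 1.34% as lower, Ctss came nearest. Its log2 ratio was -0.43 there against a mean of 2.75 elsewhere, a difference of -3.18 ± 0.83 (SE, 1 tumour against 11; limma adjusted p = 0.0541). It passed the threshold after quantile normalization (adjusted p = 0.0459) and without T172 (0.0329), the first array of T172 (0.0483), T2134 (0.0416) or T646 (0.0423). Tap1 in T920 differed by 2.26 ± 0.58 (adjusted p = 0.151), and Cd74 in T646 by 2.06 ± 0.67 (adjusted p = 0.463). The part of the low luminal markers of T176 in its class I and class II values was not tested.

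Markers of leukocytes, some of which make class II, are given beside the class II score. Of all genes tested, 18.4% were called between tumours. The macrophage list had 6 of 10 measured genes called and a score between -0.97 in T176 and 1.20 in T646, the extreme tumours of class II too. Next from the top in macrophage markers came T135 (0.83), T221 (0.59) and T372 (0.47), and in class II T135 (0.86), T372 (0.79) and T221 (0.32). C1qa, a complement component of macrophages, stood at -0.58 in T176 and 2.615 in T646. Lyz2, lysozyme, ranged from -1.12 in T176 to 3.34 in T135, Cd14, a receptor for bacterial lipid, from 1.225 in T176 to 4.94 in T646, and Mrc1, the mannose receptor, from -2.72 in T2134 to 1.11 in T221. Cd68, a lysosomal marker chosen after its values were seen, had its highest value, 2.81, in T176, where Lyz2, Cd14 and C1qa were lowest. T160 had macrophage markers at 0.01 and class II at -0.62. Limma called 0 of 7 dendritic genes, whose scores ran from -0.37 in T2134 to 0.57 in T646. The B cell list had 1 of 5 called, Cd79b, and scores from -0.47 in T284 to 0.86 in T646. The T and NK cell list had 4 of 10 called, Cd3d, Cd8a, Cd8b1 and Klrd1, and scores from -0.59 in T176 to 1.01 in T646. In T135, next to highest in class II, the B cell score was -0.37 and the T and NK cell score -0.32. Ptprc, found on all leukocytes, ranged from -0.02 in T172 to 2.12 in T646 and was not called (limma adjusted p = 0.0983). Log ratios have no true zero, so the absence of a cell type cannot be read from them, and the part of these cells in the class II values was not tested.

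Cd79b, a B cell receptor subunit, had r = 0.463 with H2-Ab1 and 0.626 with Cd74 (permutation p = 0.13 and 0.0274, adjusted 0.269 and 0.158). The rho values were 0.58 and 0.65 (permutation p = 0.0522 and 0.0257, adjusted 0.153 and 0.111). Without T372 and T646, the tumours farthest from the median of Cd79b, r was 0.05 and 0.133. Both r values thus depended on those tumours, and rho was not computed without them. Cd3d, a T cell receptor subunit, had r = 0.419 with B2m (permutation p = 0.165, adjusted 0.269) and rho = 0.413 (permutation p = 0.185, adjusted 0.301), with r = 0.463 without T646 and T372.

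**Figure D5:**
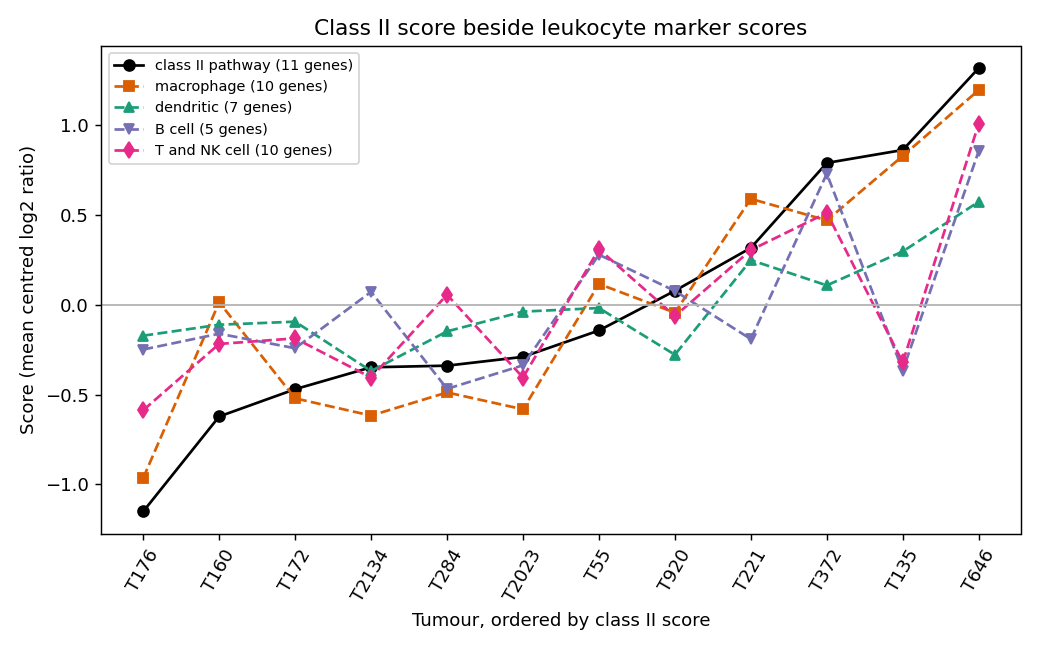
The y axis is the mean centred log2 ratio of the class II pathway and of 4 leukocyte marker lists, and the x axis the 12 tumours ordered by class II score; lines only join the values of a list. The class II and macrophage scores are both lowest in T176 (-1.15 and -0.97) and highest in T646 (1.32 and 1.20), and in T135 the B cell and the T and NK cell scores are below 0 (-0.37 and -0.32).

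Of 17 measured genes of interferon gamma signalling, which induces class I genes, 12 were called, beside 18.4% of all genes. Their median SD over tumours was 0.99. Iigp1, an interferon-induced GTPase, ranged from -3.74 in T176 to 4.26 in T372 (limma adjusted p = 0.000103). Igtp, a related GTPase, ranged from -1.49 in T2023 to 3.555 in T372, Gbp3, a guanylate-binding protein gene, from -1.06 in T176 to 4.06 in T55, and the chemokine gene Cxcl10 from -0.99 in T176 to 3.63 in T920 (adjusted p = 0.000297, 0.000479 and 0.00593). The score of this list was lowest in T176 (-1.23), T2023 (-1.15) and T172 (-0.57), which also have the 3 lowest class I scores. It was highest in T372 (0.97), as class I was. In T646, highest for class II, it was 0.43, below T55 (0.51). The part of interferon signalling in the class I values was not tested beyond the pairs that follow. Irf1, a transcription factor that acts on Tap1 and Psmb9, was not called (adjusted p = 0.061). It had r = 0.115 with Tap1, 0.598 with Psmb9 and 0.189 with B2m (permutation p = 0.707, 0.0364 and 0.549, adjusted 0.766, 0.158 and 0.735). The rho values were 0.084, 0.51 and 0.238 (permutation p = 0.8, 0.0946 and 0.456, adjusted 0.923, 0.176 and 0.659). Without T2023 and T646 r was -0.096, 0.46 and 0.16.

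Among 31 other measured genes of the pathway were constitutive proteasome subunits, chaperones, endosomal proteases and class II promoter factors. Of these 31, 3 were called, beside 18.4% of all genes, and the median SD over tumours was 0.365. The 3 were the endosomal proteases Ctsh (-1.95 in T176 to 2.004 in T284; limma adjusted p = 0.0146), Lgmn (-1.385 in T172 to 0.95 in T646; 0.0218) and Ctsl (-2.38 in T920 to 0.03 in T372; 0.0251). Limma called 0 of 5 co-stimulation genes, whose median SD was 0.33.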

How the data were processed

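The deposited series table holds, per the labels, tumour RNA in Cy5 over a common mouse reference in Cy3, and its values were read as log2 ratios. Base 2 is an inference from the span of the deposited log2 values, -9.19 to 7.42; the array medians of 0 to 0.018 look centred per array. How the arrays were scanned, corrected and normalized is not stated in what was used here, so bright and dim probes could not be told apart, and the number of arrays limits the precision too. Of 22575 probes, 18658 had 1 gene symbol, 30 several and 3887 none. Symbols come from the platform annotation, which can be old, updated through RefSeq (GRCm38.p6) for 18445 probes by Entrez identifier and 24 by accession. Probes of a gene were averaged, and genes needed values on 12 of 14 arrays.

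Tumour, with 12 levels, was the sole term of a model of all 14 arrays in limma 3.58.1 in R 4.3.3 (moderated F-test, Benjamini-Hochberg over 16877 genes). Single tumours were compared with the other 11 by limma after the 2 arrays of T172 and of T284 were averaged. Of 21 planned relations, 13 had both genes measured and used 100000 resamples. The alternatives tried were 1 probe per gene, quantile normalization, symbols as annotated, complete genes, a robust prior, the replicate block, a stricter threshold and leaving out arrays or tumours. Named with most values were the regulators, B2m, Cd74 and up to 5 called members of each role with the largest SD, or the member with the largest SD where none was called, and up to 4 called genes of other lists; further names were chosen after their values were seen. Members and lists were chosen with earlier results of these data known. The fits were tested on data simulated from their own fitted prior with independent noise. Such data cannot show whether the pairs of T172 and T284 give the true spread within a tumour. Relations used Python 3.11.15 with scipy 1.17.1.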

Additional observations from a re-analysis of the deposited data

How the results depend on the processing

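Between tumours, the count of 19 members became 8 at an adjusted p under 0.01, and those of class I and class II became 1 and 6. Leaving out an array or a tumour gave 17 to 25 members, 3 to 5 class I genes and 6 to 9 class II genes, while the share of all genes called moved from 14.9% (without T176, 17 members) to 24.2% (without the first array of T172, 25 members); the class I count was 5 without either array of T172. After quantile normalization, where 23.9% of all genes were called, 6 class I genes were called. The labels number no replicates. With the second arrays as a replicate block, on 1 residual degree of freedom, 32 members and 9 class I genes were called beside 43% of all genes; the second-minus-first differences of T172 and T284 correlated at r = 0.326 over 16769 genes. Calls of 1 tumour against 11 numbered 1 after quantile normalization and 0 to 1 with an array or tumour left out. The SD of the class II score was 0.671 after quantile normalization and 0.599 to 0.74 with an array or tumour left out, and that of class I 0.381 to 0.459. The cause was not tested. The missing intensities limit all of this.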
